A study of Rattus norvegicus with 6 samples.

Results

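Collagens and other extracellular matrix genes were examined in the livers of 3-week-old Sprague-Dawley rat pups, born to dams on a high fat diet (3 arrays) or to dams on standard chow (3 arrays). The members were all genes with an annotated symbol of the collagen alpha chain, laminin, tissue inhibitor of metalloproteinase (Timp), matrix metalloproteinase (Mmp) or lysyl oxidase (Lox) families, and in addition Dcn, Lum, Bgn, Fn1, Fbn1, Sparc, Nid1, Hspg2, Eln and Vtn. This gave 86 of the 14217 genes on the array. Total liver RNA was hybridised to Affymetrix rat expression arrays, 1 array per sample, and the values are quantile-normalised log2 signals of probe sets. The diet was that of the mother. Neither litters nor dams are named, pups of a shared litter cannot be recognised, and each p-value therefore reflects only how far these 6 samples scatter.

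The extracellular matrix is the protein scaffold around and between cells. In liver, hepatic stellate cells and portal fibroblasts make most of the fibrillar collagens, decorin and lumican, while hepatocytes secrete fibronectin and vitronectin into plasma, and sinusoidal endothelial cells contribute to the loose matrix of the space of Disse. Matrix is deposited through secreted procollagen, cross-linked by lysyl oxidases, and turned over by metalloproteinases under the restraint of their tissue inhibitors, and activated stellate cells shift this balance toward scar in fibrosis.

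The promoters of a few members whose values are given below are shown. They are Col1a2, one chain of type I collagen, and Col13a1, a transmembrane collagen. Also shown is the stretch between the start sites of the type IV collagen genes Col4a1 and Col4a2, which lie head to head and share it. Sequences are those of RefSeq on build GRCr8, which had a promoter entry for 64 of the 86 members. Capitals mark 3 motifs on either strand, which are CCAAT (a box near many start sites), TATAAA (the letters of a TATA box) and also GGGCGG (a GC box). Each stretch ends at the base before an annotated start site. Whether a marked motif works as such a box at that start was not tested. The Col1a2 stretch is chr4:33518307-33518556 on the + strand, with CCAAT (as ATTGG) beginning 221 bases and TATAAA beginning 170 bases before the start.
Col1a2: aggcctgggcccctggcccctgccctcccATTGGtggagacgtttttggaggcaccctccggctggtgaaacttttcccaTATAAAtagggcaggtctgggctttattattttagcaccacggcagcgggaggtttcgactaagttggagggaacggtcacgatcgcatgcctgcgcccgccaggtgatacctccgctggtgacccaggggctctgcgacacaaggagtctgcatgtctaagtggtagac
The Col13a1 stretch is chr20:30466801-30467050 on the - strand, with TATAAA beginning 237 bases before the start.
Col13a1: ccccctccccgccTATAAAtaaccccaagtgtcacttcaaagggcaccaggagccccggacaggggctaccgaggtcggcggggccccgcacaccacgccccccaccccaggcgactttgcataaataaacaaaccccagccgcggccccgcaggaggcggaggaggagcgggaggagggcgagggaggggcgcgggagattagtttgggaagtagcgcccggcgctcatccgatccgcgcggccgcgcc
The stretch between Col4a2 and Col4a1 is 76 bases long, chr16:84885521-84885596, written on the + strand on which Col4a1 is read, with GGGCGG (as CCGCCC) beginning 16 bases before the Col4a1 start.
Col4a2-Col4a1: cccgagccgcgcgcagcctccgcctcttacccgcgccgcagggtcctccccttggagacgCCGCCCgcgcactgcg

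In the 250 bases before the start, CCAAT on either strand was found in 16 of the 64 members, that is 25%, against 34.3% of all 27457 promoters in the table. TATAAA was found in 17.2% of the members, against 13.1% of all promoters, and GGGCGG in 53.1%, against 32.4%. The motifs do not overlap each other in the stretches shown. These shares describe letters in a window and were not set against the diet.

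The matrix genes gave no larger share of calls by maternal diet than all genes did. Of the 86 members, 55 passed the brightness limit of 5.83 on the log2 scale, below which the lowest 40% of probe sets lie, and were tested with limma. None of the 55 passed an adjusted p under 0.05, where 0.0386% of all 10372 genes tested did. At an unadjusted p under 0.05 there were 7 members, 12.7%, against 14.0% of all genes. The looser rule, which asks for 1.5-fold or more together with an unadjusted p under 0.05, was met by 2 members, 3.64%, against 6.69% of all genes. One was higher, against 3.34% of all genes, and 1 was lower, against 3.36%. The high fat arrays lay entirely to 1 side of the control arrays for 9 of the 55, 5 above and 4 below. That is 16.4% of members, against 20.8% of all genes (9.26% above and 11.6% below).

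Members went both ways, 31 higher and 24 lower, that is 43.6% lower against 53.1% of all genes. Their median log2 change (high fat minus control) was 0.02, against -0.02 over all genes tested. It was also 0.02 over all 86 members with no brightness limit. The median size of the change, without its sign, was 0.22 in members and 0.19 over all genes, and the median standard error (SE) was 0.19 and 0.18.

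**Figure D1:**
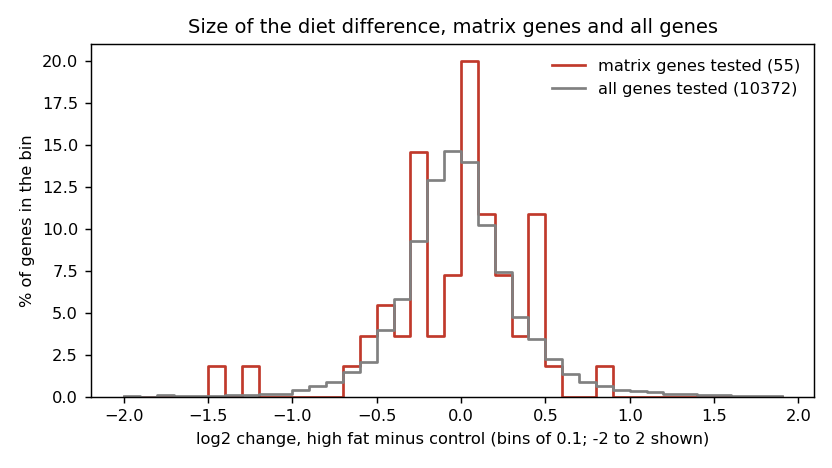
The share of genes (vertical axis, % in each bin) is drawn against the log2 change, high fat minus control (horizontal axis, bins of 0.1), for the 55 matrix genes tested in red and all 10372 genes tested in grey. Both outlines are centred near 0, with medians of 0.02 and -0.02.

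These intervals also say how precisely an absence of change is known. The 95% interval included 0 for 48 of the 55 members. For 14 of them it lay wholly within 1.5-fold either way. It reached 2-fold in at least 1 direction for 10, and 8 of these intervals also included 0, so that 3 arrays a group could not tell such a change from none in those 8. The other 2 were Col27a1 and Dcn.

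**Figure D2:**
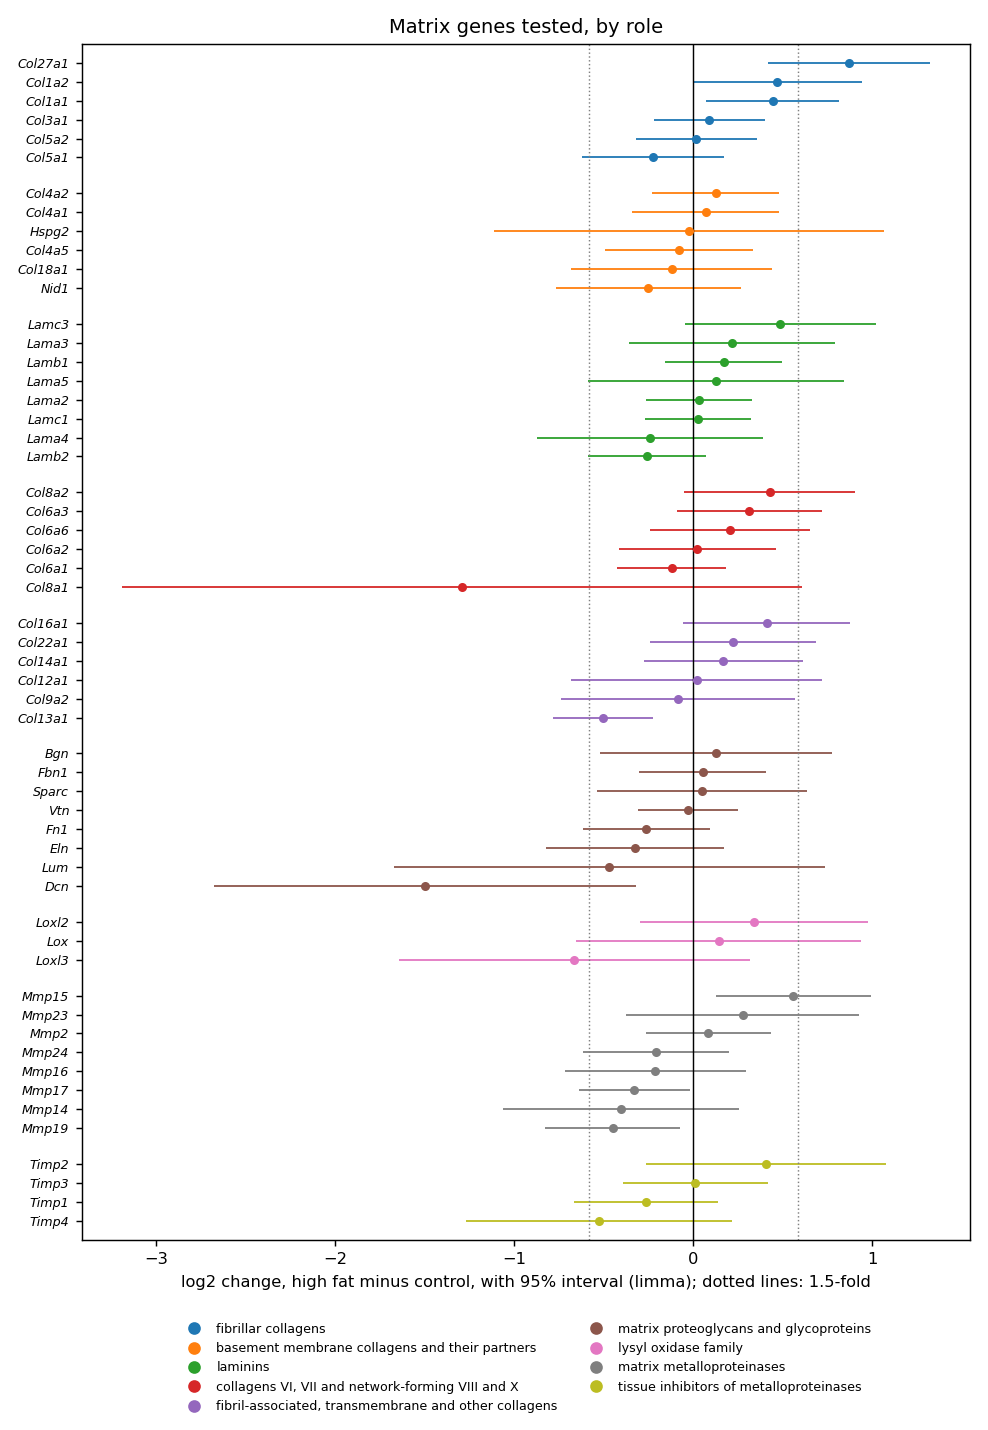
Each row is 1 of the 55 matrix genes tested, with its log2 change (high fat minus control) as a point and limma's 95% interval as a line, grouped and coloured by role. Dotted lines mark 1.5-fold. Col27a1 and Mmp15 lie farthest to the right of 0 and Dcn and Col8a1 farthest to the left, and most lines cross 0.

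Of the fibrillar collagens, the chains of the rope-like fibrils, most of the brighter ones were higher in pups of high fat dams, and none passed the adjusted test. Of 11 chains, 6 were tested and 5 of those were higher, with a median log2 change of 0.27. Over all 11 chains, dim ones included, 3 were lower and the median was only 0.04. Col27a1, a minor fibrillar collagen of cartilage and developing tissues, had log2 signals of 7.79, 7.42 and 7.13 in high fat pups, against 6.58, 6.47 and 6.69 in control pups. Every high fat array was above every control array, 1.83-fold on average (log2 change 0.87, SE 0.19, n = 3 each, limma adjusted p = 0.184). It met the looser rule with each of the 6 arrays left out in turn, at 0.70 to 1.03.

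Both chains of type I collagen, the main fibril of liver capsule, portal tracts and scar, were higher in all high fat arrays by their brightest probe set. Col1a1 was at 8.83, 9.10 and 8.85 in high fat pups, against 8.30, 8.48 and 8.68 in control pups (0.44, SE 0.16, limma adjusted p = 0.294). Col1a2, whose promoter is shown above, was at 10.66, 11.31 and 10.66 in high fat pups, against 10.38, 10.40 and 10.44 in control pups (0.47, SE 0.20, limma adjusted p = 0.360). The groups did not overlap for either chain by these probe sets. Each chain's other probe set had a change of the same sign, 0.38 for Col1a1 and 0.57 for Col1a2, but there the groups overlapped, with high fat replicate 1 at 7.20 below control replicate 2 at 7.37 for Col1a1, and at 9.97 below control replicate 3 at 10.01 for Col1a2. By the brightest probe sets, high fat replicate 2 stood highest for both chains, and without it Col1a2 was at 0.25 and Col1a1 at 0.35. By the other probe sets, high fat replicate 3 was highest for Col1a1 (8.03, against 7.67 in replicate 2). For Col1a2 these 2 arrays were level at 10.36.

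Type III collagen, the reticular fibril that runs with type I, did not share that lean. Col3a1 was at 13.10, 13.37 and 13.27 in high fat pups, against 13.18, 13.21 and 13.07 in control pups, and the groups overlapped. Its log2 change was 0.09, with a 95% interval of -0.22 to 0.40. The type V chains, which set fibril width, were at -0.22 (Col5a1, SE 0.17) and 0.02 (Col5a2, SE 0.14), and the groups overlapped for both. Their other probe sets were at -0.10 (Col5a1) and 0.32 (Col5a2), and the groups overlapped there too. The difference between the type I chains and these others was not tested.

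No basement membrane gene passed the test, while endothelial markers were lower in the same arrays. The 6 members tested of the type IV collagens and their partners had changes of -0.25 to 0.13, with a median of -0.05, and none had an unadjusted p under 0.05. Col4a1 was at 9.45, 9.60 and 9.47 in high fat pups, against 9.77, 9.31 and 9.24 in control pups (0.07, 95% interval -0.34 to 0.48). Its head-to-head partner Col4a2 was at 7.95, 8.31 and 8.09 in high fat pups, against 7.85, 8.06 and 8.07 in control pups (0.13, 95% interval -0.23 to 0.48). The groups overlapped for both, and the other Col4a1 probe set was at -0.02.

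Nidogen, Nid1, which links laminin to type IV collagen, had the lowest value of that class, at 11.10, 10.73 and 11.46 in high fat pups, against 11.60, 11.21 and 11.23 in control pups (-0.25, SE 0.22). Col18a1, whose C-terminal fragment is endostatin, was at 12.76, 11.84 and 12.49 in high fat pups, against 12.53, 12.43 and 12.50 in control pups. High fat replicate 2 was the low array for both genes. Without it Col18a1 was at 0.14, against -0.12 with all arrays, and Nid1 at -0.07, against -0.25. Hspg2, the heparan sulfate proteoglycan perlecan, was at 7.79, 7.24 and 6.93 in high fat pups, against 6.30, 7.95 and 7.78 in control pups, with an interval from -1.11 to 1.06.

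Endothelial markers gave a different picture in the same arrays. All 17 markers of sinusoidal and other endothelial cells that were tested were lower in high fat pups, with a median of -0.61. Of the 17, 8 met the looser rule, where 3.36% of all genes met it in the lower direction. None of them passed the adjusted test. Their summed linear signal was 13890 to 18599 in high fat pups, against 23731 to 27737 in control pups. In whole liver, fewer cells of a type and less RNA per cell cannot be told apart. The part of the endothelial markers in the matrix values was not tested.

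Laminins, the cross-shaped proteins of the basement membrane, had 8 of 10 members tested, 6 higher and 2 lower, with a median of 0.08. Lamc1, the gamma chain shared by most laminins, was at 9.83, 9.68 and 9.65 in high fat pups, against 9.64, 9.67 and 9.78 in control pups (0.03, 95% interval -0.27 to 0.32). Lamb1, its usual beta partner, was at 9.12, 8.86 and 8.82 in high fat pups, against 8.83, 8.70 and 8.77 in control pups (0.17, SE 0.14). The groups overlapped for both. Lamb2, the alternative beta chain, was at 8.20, 8.24 and 8.16 in high fat pups, against 8.33, 8.39 and 8.67 in control pups. The high fat arrays were all below the control arrays, by a small amount (-0.26, SE 0.14, limma adjusted p = 0.460). Lamc3 had the largest change of the class, at 7.17, 7.32 and 7.38 in high fat pups, against 6.72, 7.27 and 6.42 in control pups (0.49, SE 0.22, limma adjusted p = 0.396).

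Of the 4 tested chains of microfibrillar type VI collagen, which anchors cells to the interstitial matrix, 3 were higher and 1 lower, and the groups overlapped for all 4. Col6a1 was at 9.72, 9.92 and 9.92 in high fat pups, against 10.01, 10.03 and 9.89 in control pups (-0.12, SE 0.13). Col6a3 was at 9.34, 9.81 and 9.67 in high fat pups, against 9.33, 9.44 and 9.12 in control pups (0.31, SE 0.17). Its other, dim probe set was at -0.33, and with the mean of both the change was -0.0098. Col6a2 was at 0.02 (SE 0.18) and Col6a6 at 0.21 (SE 0.19). Of the network-forming type VIII chains, Col8a2 was at 0.43 (SE 0.20) and Col8a1 at -1.29 (SE 0.80). Col8a1 split the high fat arrays, at 5.21, 4.996 and 7.91, against 8.21, 6.91 and 6.86 in control pups. Without high fat replicate 3 it was at -2.23 (limma adjusted p = 0.265).

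Col13a1, a collagen held in the plasma membrane at cell contacts, varied little within either group. It was at 7.63, 7.70 and 7.59 in high fat pups, against 8.10, 8.19 and 8.14 in control pups. All high fat arrays were lower, 1.42-fold on average (-0.50, SE 0.12, limma adjusted p = 0.191), which is under the 1.5-fold of the looser rule. With each array left out in turn it stayed between -0.54 and -0.48, with an unadjusted limma p of at most 0.0179. Col16a1, a fibril-associated collagen, was at 7.57, 7.76 and 7.67 in high fat pups, against 7.34, 7.56 and 6.87 in control pups (0.41, SE 0.20). Its groups did not overlap, though the lowest high fat array and the highest control array nearly met. Col14a1, which lies on the surface of fibrils, was at 10.88, 11.28 and 11.46 in high fat pups, against 11.23, 10.96 and 10.92 in control pups, and overlapped (0.17, SE 0.19).

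**Figure D3:**
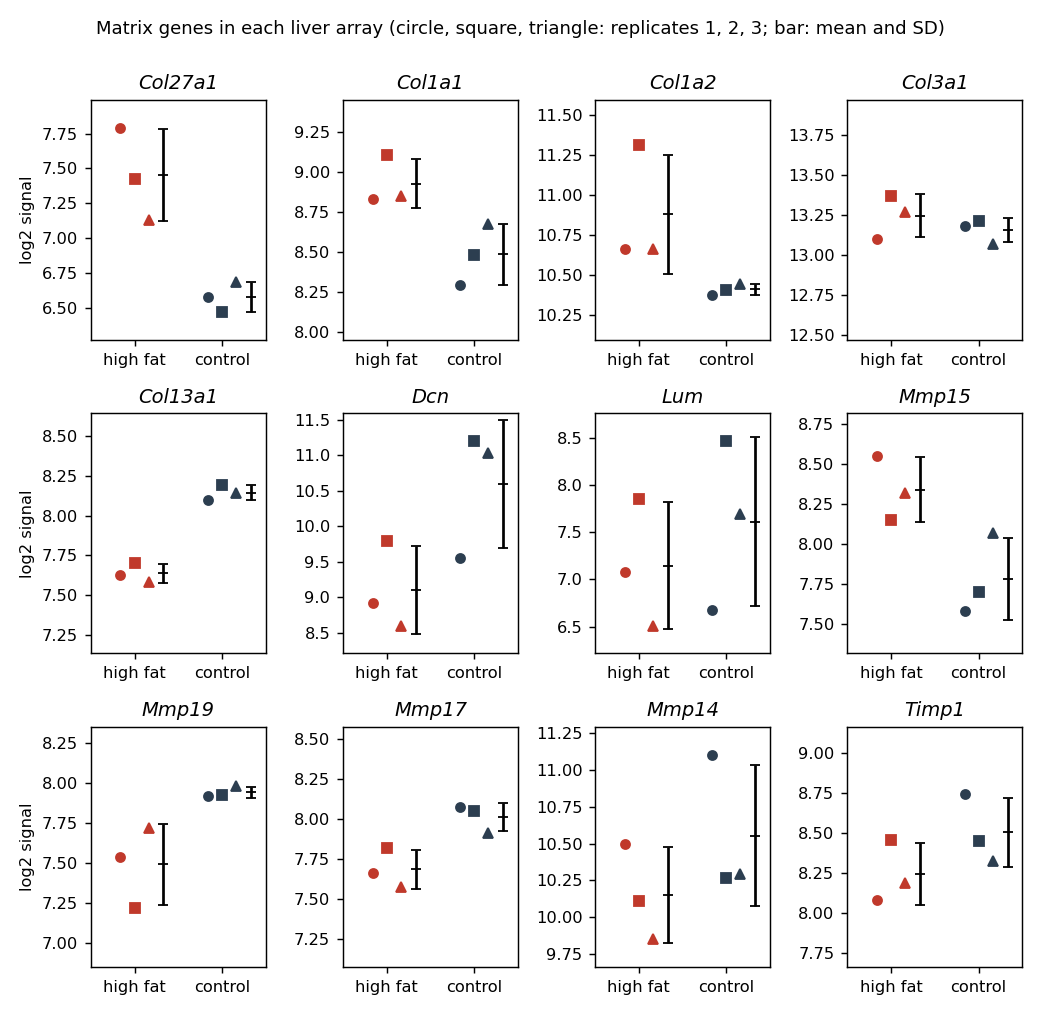
Log2 signals (vertical axis, a scale of its own for each gene) of 12 matrix genes in the 3 high fat arrays (red, left) and 3 control arrays (dark, right), with circle, square and triangle for replicates 1, 2 and 3 and a bar for the mean and SD. Col27a1, Col1a1, Col1a2 and Mmp15 lie higher and Col13a1, Mmp19 and Mmp17 lower in every high fat array, while Dcn, Lum, Col3a1, Mmp14 and Timp1 overlap.

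Decorin, Dcn, the small leucine-rich proteoglycan that coats collagen fibrils and binds TGF-beta, had the largest downward value of the members tested. It was at 8.91, 9.79 and 8.60 in high fat pups, against 9.55, 11.20 and 11.03 in control pups. The groups overlapped, since control replicate 1 lay below high fat replicate 2. On average Dcn was 2.82-fold lower (-1.50, SE 0.50, limma adjusted p = 0.282), and it met the looser rule. When 1 array was left out, the rule was met only where that array was control replicate 1 (-2.01) or high fat replicate 2 (-1.84), with unadjusted limma p-values of 0.0537 to 0.0692 in the other 4 cases. With a covariate for RNA integrity, the difference between 3' and 5' control probe sets, the change was -1.35 and the rule was not met (limma adjusted p = 0.494). That difference was 1.92 to 2.46 in high fat pups, against 2.18, 2.42 and 3.06 in control pups, highest in control replicate 3, and its part in the Dcn value was not tested beyond that fit.

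Lumican, Lum, of the same proteoglycan family, ordered the 3 arrays within each group as Dcn did. It was at 7.08, 7.85 and 6.51 in high fat pups, against 6.68, 8.47 and 7.69 in control pups (-0.47, SE 0.51). The change was -0.93 without control replicate 1 and -0.04 without control replicate 2. Biglycan, Bgn, was at 9.80, 10.50 and 9.87 in high fat pups, against 9.88, 10.37 and 9.55 in control pups (0.13, SE 0.27). High fat replicate 2 was the highest high fat array for all 3 proteoglycans, and control replicate 1 the lowest control array for Dcn and Lum.

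Control replicate 1 was also low in Hspg2 and in Col15a1, a collagen of basement membrane zones, at 4.12 against 6.42 and 5.92 in the other controls. Col15a1 was below the brightness limit and was not tested. In that array the median of the markers for fibroblasts and activated stellate cells was -0.47 around the control mean, against 0.12 and 0.23 in the other controls and -0.13 to -0.06 in high fat pups. The summed linear signal of that list was 5255 to 5744 in high fat pups, against 4707 to 7544 in control pups. Its part in the proteoglycan values was not tested.

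The plasma glycoproteins from hepatocytes overlapped between diets. Vitronectin, Vtn, was at 14.43, 14.43 and 14.48 in high fat pups, against 14.55, 14.41 and 14.46 in control pups (-0.03, 95% interval -0.31 to 0.25). Fibronectin, Fn1, was at 13.95, 14.03 and 14.16 in high fat pups, against 14.51, 14.30 and 14.12 in control pups (-0.26, SE 0.15, limma adjusted p = 0.486). Sparc, a collagen-binding matricellular protein, was at 11.54, 12.36 and 11.60 in high fat pups, against 12.01, 11.63 and 11.72 in control pups (0.05, SE 0.25).

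Cross-linking enzymes showed no shift past the test. Lox was at 7.27, 8.52 and 7.59 in high fat pups, against 7.38, 7.58 and 7.98 in control pups (0.14, SE 0.34). Loxl2 was at 8.24, 8.68 and 8.72 in high fat pups, against 8.71, 8.18 and 7.74 in control pups (0.34, SE 0.27), and Loxl3 had a log2 change of -0.66 (SE 0.41), with its high fat mean under the brightness limit. Loxl2 was at 0.11 without control replicate 3, and Loxl3 was at -0.21 when high fat replicate 1 was left out and at -1.07 when replicate 3 of that diet was. The arrays of both groups overlapped for all 3. Loxl1, which cross-links elastin, was at 6.27, 6.93 and 6.43 in high fat pups, against 4.80, 4.47 and 6.01 in control pups. Every high fat array was higher, but its mean over the 6 arrays, 5.82, fell just under the brightness limit and it was not among the genes tested. With only the lowest 20% of probe sets left out it was tested and met the looser rule (1.45, limma adjusted p = 0.354).

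Metalloproteinases, the enzymes that cut matrix, held 3 of the 7 members with an unadjusted p under 0.05, and these did not go the same way. They were 3 of the 8 metalloproteinases tested, against 14.0% of all genes, and that difference was not tested. Mmp15, a membrane-anchored enzyme, was at 8.55, 8.15 and 8.32 in high fat pups, against 7.58, 7.70 and 8.07 in control pups, higher in every high fat array (0.56, SE 0.18, limma adjusted p = 0.276). Mmp19 was at 7.53, 7.22 and 7.72 in high fat pups, against 7.92, 7.92 and 7.98 in control pups, lower in every high fat array (-0.45, SE 0.16, limma adjusted p = 0.295). Mmp17, another membrane-anchored enzyme, was also lower in every high fat array, at 7.67, 7.82 and 7.58, against 8.08, 8.05 and 7.92 in control pups (-0.33, SE 0.13, limma adjusted p = 0.337).

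Mmp14 and the gelatinases overlapped between diets. Mmp14, the membrane enzyme that activates Mmp2, was at 10.49, 10.11 and 9.85 in high fat pups, against 11.11, 10.27 and 10.29 in control pups (-0.40, SE 0.28). Control replicate 1 was the high array, and without it the change was -0.13. Mmp2, gelatinase A, was at 8.43, 8.49 and 8.78 in high fat pups, against 8.52, 8.57 and 8.36 in control pups (0.08, 95% interval -0.27 to 0.43). Of 17 metalloproteinases on the array 8 were tested. Mmp9, gelatinase B, was below the brightness limit, at 2.95, 4.44 and 4.68 in high fat pups, against 4.20, 2.05 and 3.83 in control pups.

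The tissue inhibitors were all tested and all overlapped, 2 higher and 2 lower. Timp1, the inhibitor that marks liver injury, was at 8.08, 8.46 and 8.18 in high fat pups, against 8.74, 8.45 and 8.32 in control pups (-0.26, SE 0.17). Timp2 was at 8.44, 9.26 and 9.33 in high fat pups, against 8.96, 8.33 and 8.53 in control pups (0.41, SE 0.28). Timp3, which is bound to matrix, was at 9.27, 9.58 and 9.71 in high fat pups, against 9.30, 9.64 and 9.59 in control pups (0.01, 95% interval -0.39 to 0.42). Timp4 was at -0.53 (SE 0.31), with control replicate 1 at 5.86 against 7.10 and 6.64 in the other controls.

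The 31 members below the brightness limit by their mean included many collagens of cartilage and skin and 9 of the 17 metalloproteinases. They were 15 higher and 16 lower. In 6 of them, 19.4%, the groups did not overlap, against 11.3% of all 3845 genes below the limit, and this difference was not tested. Col7a1, the anchoring fibril of skin, was at 3.24, 3.03 and 1.60 in high fat pups, against 4.97, 5.49 and 5.04 in control pups. Col26a1 (-1.34) and Col6a5 (-0.99) were also lower in every high fat array. Col4a6 (1.59), Loxl1 (1.45) and Mmp8 (2.23), a neutrophil collagenase, were higher in every high fat array, Mmp8 with control replicate 1 far below the others at 0.38. None of the 6 was tested in the main fit. With only the lowest 20% of probe sets left out, Col26a1 (limma adjusted p = 0.325) and Col6a5 (limma adjusted p = 0.407) met the looser rule, as Loxl1 did above. With no brightness limit Col7a1 met it too (-2.54, limma adjusted p = 0.319), while Col4a6 and Mmp8 did not.

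Genes that process collagen, listed apart from the members, had 15 tested, 8 higher and 7 lower (median 0.02). The looser rule was met by 2 of the 15, against 6.69% of all genes, and the adjusted test was passed by none. Serpinh1, the chaperone HSP47 that folds procollagen, was at 9.90, 10.87 and 10.41 in high fat pups, against 9.08, 8.85 and 9.08 in control pups. It was 2.63-fold higher with no overlap (1.39, SE 0.25, limma adjusted p = 0.166). Plod2, which hydroxylates lysines for stable cross-links, was at 7.99, 8.26 and 7.999 in high fat pups, against 7.55, 7.16 and 6.97 in control pups (0.86, SE 0.19, limma adjusted p = 0.184). P4ha2, a prolyl hydroxylase subunit, was also above controls in every array, by less (0.29, SE 0.15). The heat shock gene Hspa1a was at 7.91, 14.19 and 12.60 in high fat pups, against 7.18, 7.56 and 7.90 in control pups, so that high fat replicates 2 and 3 were the higher arrays for Serpinh1 and Hspa1a alike. The part of a heat shock difference in Serpinh1 was not tested.

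In the TGF-beta list, the main fibrogenic pathway, 12 of 20 tested genes were higher and 8 lower, with a median of 0.10. The looser rule was met by 2 of the 20, against 6.69% of all genes. Tgif1, a transcriptional repressor of the pathway, was 2.37-fold higher (1.24, SE 0.22, limma adjusted p = 0.166). The ligand gene Tgfb3 was at 5.997, 6.27 and 6.64 in high fat pups, against 5.57, 5.70 and 5.28 in control pups (0.79, SE 0.20, limma adjusted p = 0.211). All of its control values were below the brightness limit of 5.83, so Tgfb3 was tested only through its high fat arrays. Neither gene's groups overlapped. Among 22 proteases of the plasmin and ADAM families 7 were higher and 15 lower. The looser rule was met by 3 of the 22, against 6.69% of all genes. Among these 3 were Adamts9 (1.10, SE 0.23) and Adamts7 (-0.73, SE 0.17).

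Matrix receptors were 12 higher and 8 lower, with a median of 0.08. The looser rule was met by 1 of the 20 tested, against 6.69% of all genes. That was the heparan sulfate proteoglycan Sdc1 (-0.63, SE 0.16), and the integrin subunit Itgb3 was at -0.51 (SE 0.17). Other matrix glycoproteins were 20 higher and 10 lower of 30 tested, with a median of 0.18. The looser rule was met by 4 of the 30, against 6.69% of all genes. Smoc2, a calcium-binding matricellular protein, was at 8.53, 9.07 and 8.96 in high fat pups, against 7.86, 7.93 and 8.11 in control pups (0.89, SE 0.18, limma adjusted p = 0.179), and Egfl7, which endothelial cells secrete, was at -0.75 (SE 0.22). Hyaluronan genes were 1 higher and 8 lower of 9 tested, but their median was -0.04, against -0.02 over all genes. The looser rule was met by 2 of the 9, both lower, where 3.36% of all genes met it in that direction. Their leading genes were Hyal3, a hyaluronidase (-1.52, SE 0.34), and the endothelial receptors Lyve1 (-0.57, SE 0.12) and Stab2 (-0.97, SE 0.23). Lyve1 did not meet the rule, and both receptors were also among the endothelial markers above. No gene of these lists passed the adjusted test.

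**Figure D4:**
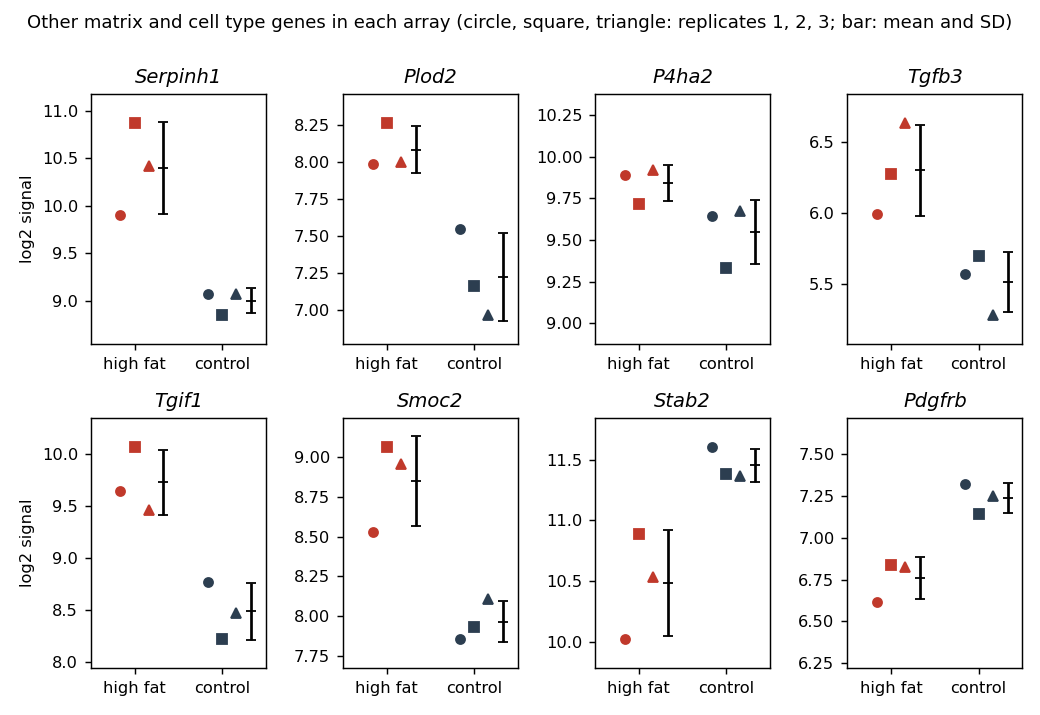
Log2 signals (vertical axis, a scale of its own for each gene) of 8 genes outside the matrix list in the 3 high fat arrays (red, left) and 3 control arrays (dark, right), with circle, square and triangle for replicates 1, 2 and 3 and a bar for the mean and SD. Serpinh1, Plod2, P4ha2, Tgfb3, Tgif1 and Smoc2 lie higher and Stab2 and Pdgfrb lower in every high fat array.

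Markers of the cells that make matrix did not move as a block. Of 10 stellate cell markers tested, 4 were higher and 6 lower, with a median of -0.21. The looser rule was met by 2 of the 10, 1 in each direction, against 6.69% of all genes. Lrat, which stores retinol esters in stellate cells, was at 9.80, 10.40 and 10.30 in high fat pups, against 9.77, 9.28 and 9.35 in control pups (0.70, SE 0.22). The transcription factor Lhx2 was at -0.69 (SE 0.20) and the growth factor receptor Pdgfrb at -0.48 (SE 0.13), both lower in every high fat array. Of the 5 tested markers of activated stellate cells and fibroblasts, 2 were higher and 3 lower, with a median of -0.15. Acta2, the smooth muscle actin of activated stellate cells, was at 6.13, 5.72 and 6.26 in high fat pups, against 6.53, 6.54 and 6.53 in control pups (-0.49, SE 0.17, limma adjusted p = 0.285). Mfap4, a microfibril-associated protein, was at 6.41, 7.04 and 7.21 in high fat pups, against 5.26, 6.50 and 6.50 in control pups, and overlapped (0.80, SE 0.38, limma adjusted p = 0.407). The dim markers of that list were not tested. Postn (2.66) and Clec3b (0.91) were higher in every high fat array, while Tagln (0.55), Pi16 (-0.08) and Thy1 (-0.39) overlapped between diets. The summed linear signal of the stellate list was 7029.6 to 7484 in high fat pups, against 7000.3 to 8087 in control pups, and the ranges overlapped.

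**Figure D5:**
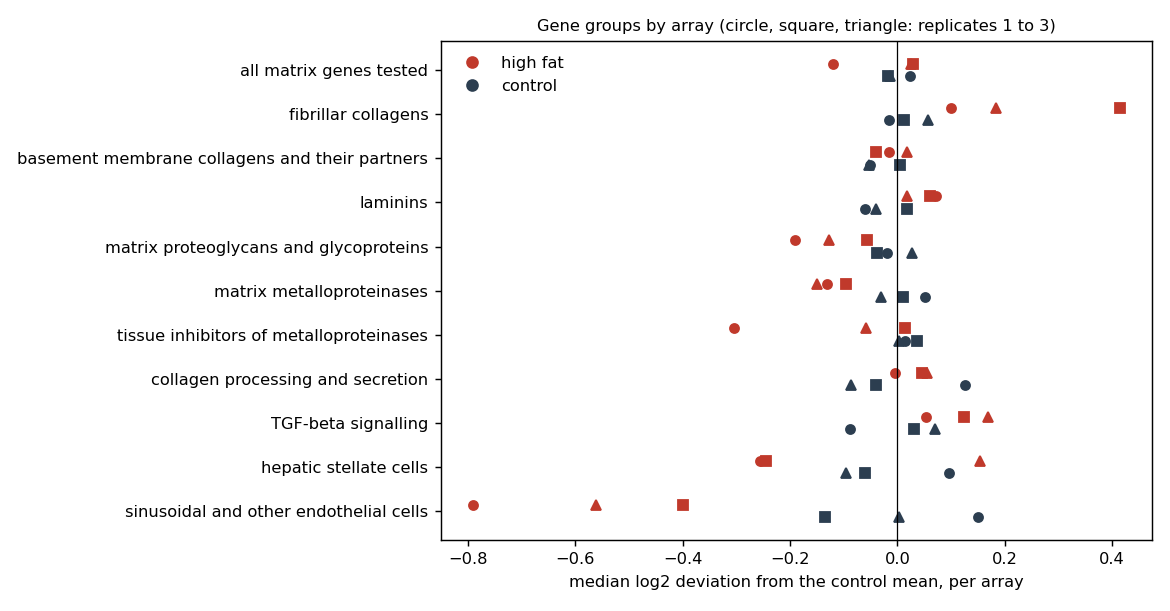
For each gene group (rows), the median log2 deviation of its tested genes from the control mean (horizontal axis) is shown per array, high fat in red above control in dark, with circle, square and triangle for replicates 1, 2 and 3. Fibrillar collagens lie at 0.10 to 0.41 in high fat arrays and endothelial markers at -0.79 to -0.40, while the matrix genes together stay within -0.12 to 0.03.

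The arrays themselves also differed within a diet group, and the part of these differences in single members was not tested. Hepatocyte markers were bright on all arrays (Alb at 14.46 to 14.77 in high fat pups and 14.54 to 14.62 in control pups). High fat replicate 1 carried exocrine pancreas transcripts, with Prss1 at 13.08 and at 4.10 to 5.30 elsewhere. High fat replicate 3 differed in sex-linked transcripts, with Xist at 4.45 and at 12.46 to 13.31 elsewhere. The Y-linked Eif2s3y was at 11.14 in that array and at 0 to 3.99 elsewhere. The high fat group was thus mixed in these sex-linked transcripts, while the control arrays were all high in Xist and low in Eif2s3y. High fat replicate 2 was the highest high fat array for 24 of the 55 members, 43.6%, against 34.0% of all genes, and high fat replicate 1 the lowest for 26, 47.3%, against 33.9%. Mesothelial markers, of the liver capsule, were highest in high fat replicate 2 as well, with a median of 0.97 above the control mean, against 0.33 and 0.46 in the other high fat arrays. All 5 tested were higher in high fat pups, from 0.04 (Lrrn4) to 1.82 (Msln, with control replicate 2 at 3.11). The control means of Msln (5.38) and Wt1 (5.48) were under the brightness limit. Both genes were tested only through their high fat arrays, so their direction adds little to that count. Only Krt19 met the looser rule (0.72, groups overlapping), where 3.34% of all genes met it in the higher direction. Krt19 was also listed as a cholangiocyte marker. All 3 tested cholangiocyte markers were higher (median 0.35), while 2 of the 7 on the array were lower. The summed linear signal of the mesothelial markers was 1765 to 2635 in high fat pups, against 1468 to 1762 in control pups. Bnc1, a defining gene of the mesothelial list, was listed at 0 in control replicates 1 and 2. The part of the mesothelial markers in the type I collagen values was not tested.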

How the data were processed

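Labelling used a kit for 3'-biased amplification (3' IVT), as the labels' protocols state. The deposited log2 values of 31099 probe sets were scaled by the authors to a common level per array, as the values show (a 2% trimmed mean of 500.2 on each array once the logarithm is undone). Which software summarized the probes is not given in the sources used. Between 91 and 144 values per array were listed at 0. The 57 control probe sets were removed and the arrays quantile-normalized, since quartiles differed by up to 0.22. Of the others, 20826 probe sets had 1 gene, 436 several and 9780 none named here. Symbols were updated through RefSeq (20758 matched). Each gene took its probe set of highest mean.

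The high fat and control arrays were fitted in limma 3.58.1 under R 4.3.3 (lmFit and eBayes, 2-sided; Benjamini-Hochberg over 10372 genes), and the procedure was tested on simulated data. Of the members, 30 had several probe sets, and in 4 of 16 with several above the limit these differed in sign (Col4a1, Fbn1, Mmp24, Timp3). When an array was left out, the others were normalized again and probe sets kept. Genes named were the members past the looser rule, the 2 of smallest p per role and per other list, and a list of anchors kept whatever their values. Others, such as Col8a1, Mmp17, Stab2, Mfap4, Postn, Lrat, P4ha2, Hspa1a and the dim members, were chosen after their values were seen. The members and lists were chosen with earlier results of these data known. Alternatives covered the normalization, brightness limit, probe set choice, variance model, array weights, replicate number, RNA integrity and thresholds. The number of arrays limits the precision. Figures were drawn with matplotlib 3.10.9.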

Additional observations from a re-analysis of the deposited data

How the results depend on the processing

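No member passed an adjusted p under 0.05 in limma under any alternative run, where 7 had an unadjusted p under 0.05 with all arrays, and 2 passed at an adjusted p under 0.2. The count past the looser rule, 2, was 6 with no brightness limit, 5 with the lowest 20% of probe sets left out and 1 with the lowest 60% left out, as fewer or more members were tested. It was 7 with no fold limit and 1 at an unadjusted p under 0.01, and 2 to 4 with 1 array left out, the highest without control replicate 1. The count over the other matrix lists, 14, was 12 to 23 with 1 array left out, the highest without high fat replicate 3. The median change was -0.025 to 0.043 with 1 array left out.

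Some signs turned, mostly of values near 0. Timp3 was at -0.015 with arrays centred on their medians, and at -0.036 with the mean of all probe sets, where Col6a3, at 0.31 by its brighter probe set, was at -0.0098. With the covariate for RNA integrity Dcn no longer met the looser rule and Mmp15 did (0.76). In that fit Bgn was at -0.13, Col18a1 at 0.030, Col4a1 at -0.080, Hspg2 at 0.35 and Sparc at -0.15. With 1 array left out, the range was -0.094 to 0.35 for Bgn, -0.32 to 0.14 for Col18a1, -0.033 to 0.23 for Col4a1, -0.0595 to 0.097 for Col5a2, -0.55 to 0.28 for Hspg2, -0.030 to 0.067 for Lamc1, -0.22 to 0.40 for Lox, -0.022 to 0.15 for Mmp2, -0.22 to 0.19 for Sparc, -0.093 to 0.14 for Timp3 and -0.060 to 0.0087 for Vtn. The cause was not tested. Samples of the same replicate number did not deviate together (r = -0.13, -0.13 and -0.14), and those of different numbers were at 0.04 to 0.08. Deviations were taken within groups of 3, so these values cannot decide whether the numbers pair samples. With the replicate number as a block, no member passed the adjusted test, 2 met the looser rule and the median change was 0.02.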
